A study of Mus musculus with 12 samples.

Results

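Knockdown of Creb1 in activated mouse CD8+ T cells was examined without trans-vaccenic acid (TVA), by setting 3 libraries of siCreb1 cells against 3 libraries of siNTC cells, 6 of the 12 RNA-seq libraries of the series. All cells were primary CD8+ T cells. Click's medium is given for their culture, and the paper's siRNA method adds a period in delivery medium with IL-2 and little serum. The siNTC cells, whose genotype is given as WT, received a non-targeting siRNA. The siCreb1 cells, given as Creb1 KD, received an siRNA against Creb1. Both groups then had the vehicle DMSO for 24 hours, and the remaining 6 libraries carry the same siRNAs followed by TVA for the same time. The knockdown was transient, with Accell siRNA that cells take up from the medium after activation, so it is no genetic deletion and every group has been through activation and siRNA delivery. The labels give no strain or age and do not say whether replicate libraries came from separate animals or cultures, so p-values measure only the spread between these libraries. Of the 54532 listed genes, 11521 had a mean of at least 1 FPKM (a read count scaled to gene length and to library size) over the 6 libraries and were tested. At the edge of this threshold, Pyroxd1 entered with a mean of 1.0001 FPKM and Scamp1 stayed out with 0.99963 FPKM.

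CREB1 is a transcription factor that protein kinase A (PKA) phosphorylates when cyclic AMP rises. It binds the cAMP response element, TGACGTCA, or its shorter core, and once phosphorylated it recruits the coactivators CBP and p300, while the CRTC coactivators bind it independently of that phosphate. In T cells it is also phosphorylated downstream of the T cell receptor, and immediate early genes are among its best known targets.

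Creb1 RNA was 10.98, 10.3 and 10.5 FPKM in the siNTC libraries and 1.19, 1.29 and 1.77 FPKM in the siCreb1 libraries. The groups lay far apart, and 13.4% of the mean level was left. The log2 fold change on the log2(FPKM + 1) scale was −2.27 (standard error 0.11, limma, Benjamini-Hochberg adjusted p = 2.2e-06). An exact permutation test of the 20 divisions of the 6 libraries gave a two-sided p = 0.1, the smallest that 3 against 3 allows. The files hold RNA only, so the amount of CREB1 protein is not known from them.

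**Figure D1:**
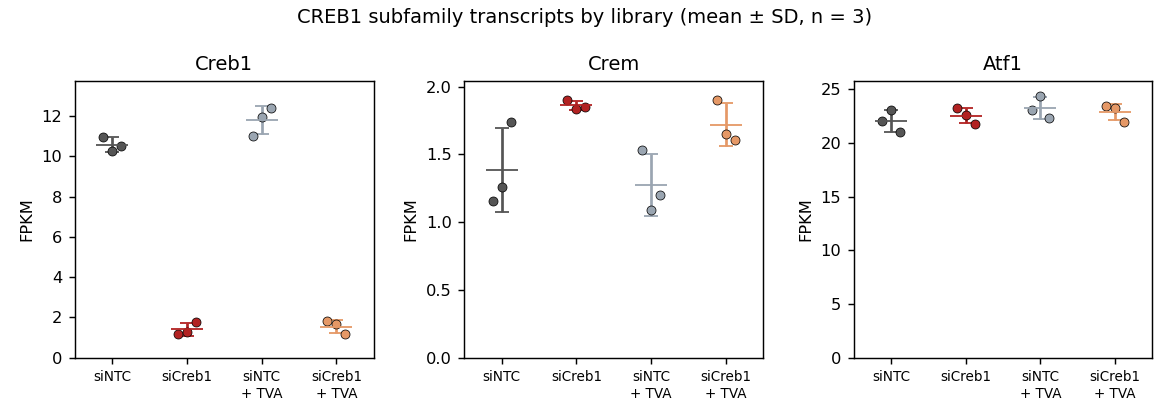
Level in FPKM of Creb1, Crem and Atf1, the CREB1 subfamily, in each library of the 4 groups, with a point per library and the mean ± SD (n = 3). Without TVA, Creb1 lies between 1.19 and 1.77 FPKM in siCreb1 and between 10.3 and 10.98 FPKM in siNTC libraries, Crem is apart by a narrow gap, and Atf1 overlaps between the groups.

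The libraries without TVA held between 17523623 and 22192484 reads, recovered from the FPKM values, and those of siCreb1 cells were the deeper ones. Replicates of a group correlated at 0.986 to 0.989 over the tested genes on the log2 scale, and libraries of different groups at 0.983 to 0.988. The defining genes of CD8+ T cells were abundant, with summed levels of 2353 to 2377 FPKM over Cd8a, Cd8b1, Cd3e, Cd3d, Cd3g and Trac in siNTC cells and 2234 to 2241 FPKM in siCreb1 cells. At an adjusted p under 0.05 (limma), 4 of these 6 genes fell and 1 rose, with a median log2 fold change of −0.11. With each library rescaled to the same sum over genes, 0 fell and 1 rose.

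At an adjusted p under 0.05, 1584 genes (13.7% of those tested) differed between siCreb1 and siNTC cells without TVA. Of these, 753 rose (6.54%) and 831 fell (7.21%). The changes were small, with a median log2 fold change of 0.24 among the genes that rose and −0.19 among those that fell, against −0.00 over all tested genes. A change of at least 0.5 was seen in 52 genes that rose and in 33 that fell. The split depends on the scaling: rescaled so that each library has the same sum over genes (TPM), 910 genes rose and 297 fell, and limma-voom on the recovered reads gave 1177 and 803. Without the libraries siCreb1 1, siCreb1 2 or siCreb1 3 in turn, 523, 523 and 551 genes fell, and 499 rose without siCreb1 1. The libraries of the groups did not overlap for 750 of the genes that rose and 826 of those that fell, and this was so for 31.5% of all tested genes.

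Protein-coding genes made up 95.1% of those that fell, 87.4% of those that rose and 83.5% of those tested. Long intergenic non-coding RNAs (23 higher and 3 lower of 215) and transcripts of the TEC class, which lack experimental evidence (16 higher and 0 lower of 100) held more calls higher than lower, and most members of each class were not called. Of 637 processed pseudogenes, 4 rose and 14 fell. The median listed length was 5177 bases for genes that rose, 3442 for those that fell and 3738 for all tested genes, and the median level was 10.7, 24.9 and 8.19 FPKM. The part of gene length in the calls was not tested.

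The same knockdown in the presence of TVA used 6 libraries that the first comparison did not use, although both share the spread estimated in the fit. It changed 1170 genes (10.2%), of which 533 rose (4.63%) and 637 fell (5.53%). Of the 753 genes that rose without TVA, 238 (31.6%) also rose with TVA, while 54 (7.17%) fell. Of the 831 that fell, 266 (32.0%) fell again and 3 (0.361%) rose. The sign alone repeated for 65.3% of the former and 88.8% of the latter, against 64.5% of all tested genes. The fold change with TVA minus that without it (the interaction) passed the test in 261 genes (2.27%), with 208 below 0 and 53 above 0.

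**Figure D2:**
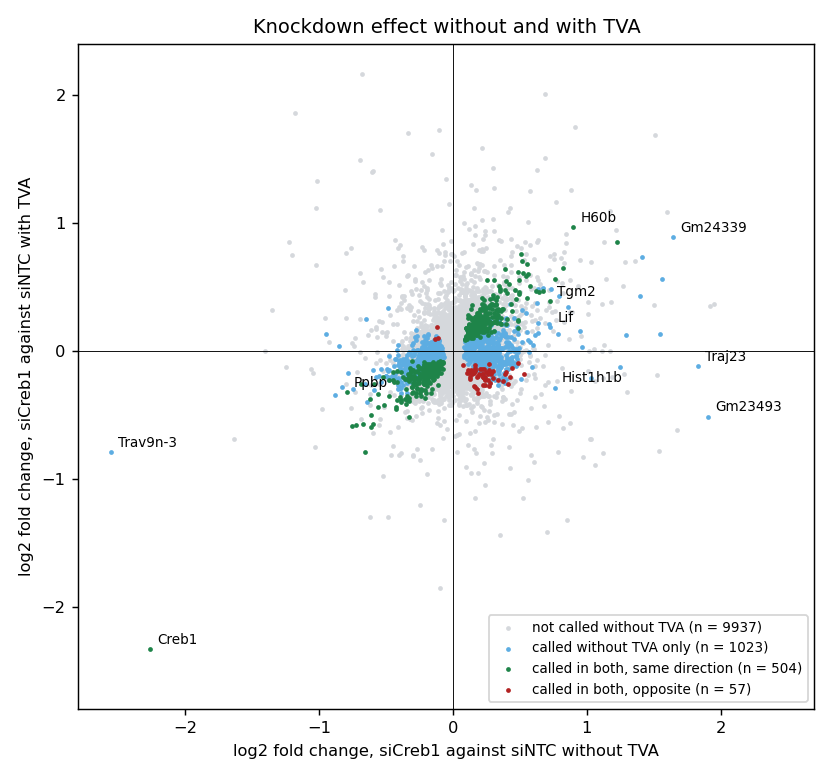
Log2 fold change of siCreb1 against siNTC cells without TVA (horizontal) and with TVA (vertical) for each tested gene, on the log2(FPKM + 1) scale, with colours for the comparisons in which a gene was called. Creb1 lies at −2.27 and −2.34, and 504 genes, Creb1 included, were called in the same direction in both.

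Gene lists were described by their counts and medians without a test. Over all tested genes 6.54% rose and 7.21% fell, the shares beside which each list count is to be read. The cell cycle lists stood highest without TVA, with medians of 0.22 for DNA replication and 0.27 for mitosis. The median of replication-dependent histones, a list added after the values were seen of which 1 of 22 tested genes rose, was 0.26, but it turned to −0.11 with a mean of at least 5 FPKM required. Sterol and fatty acid synthesis (0.11), G1 control (0.09) and interferon-stimulated genes (0.09) followed. A list of platelet genes, also added after the values were seen, stood lowest (−0.50). Lists of CREB targets (−0.12), naive and memory genes (−0.12), lysosome genes (−0.10) and homing receptors (−0.08) were also below 0.

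**Figure D3:**
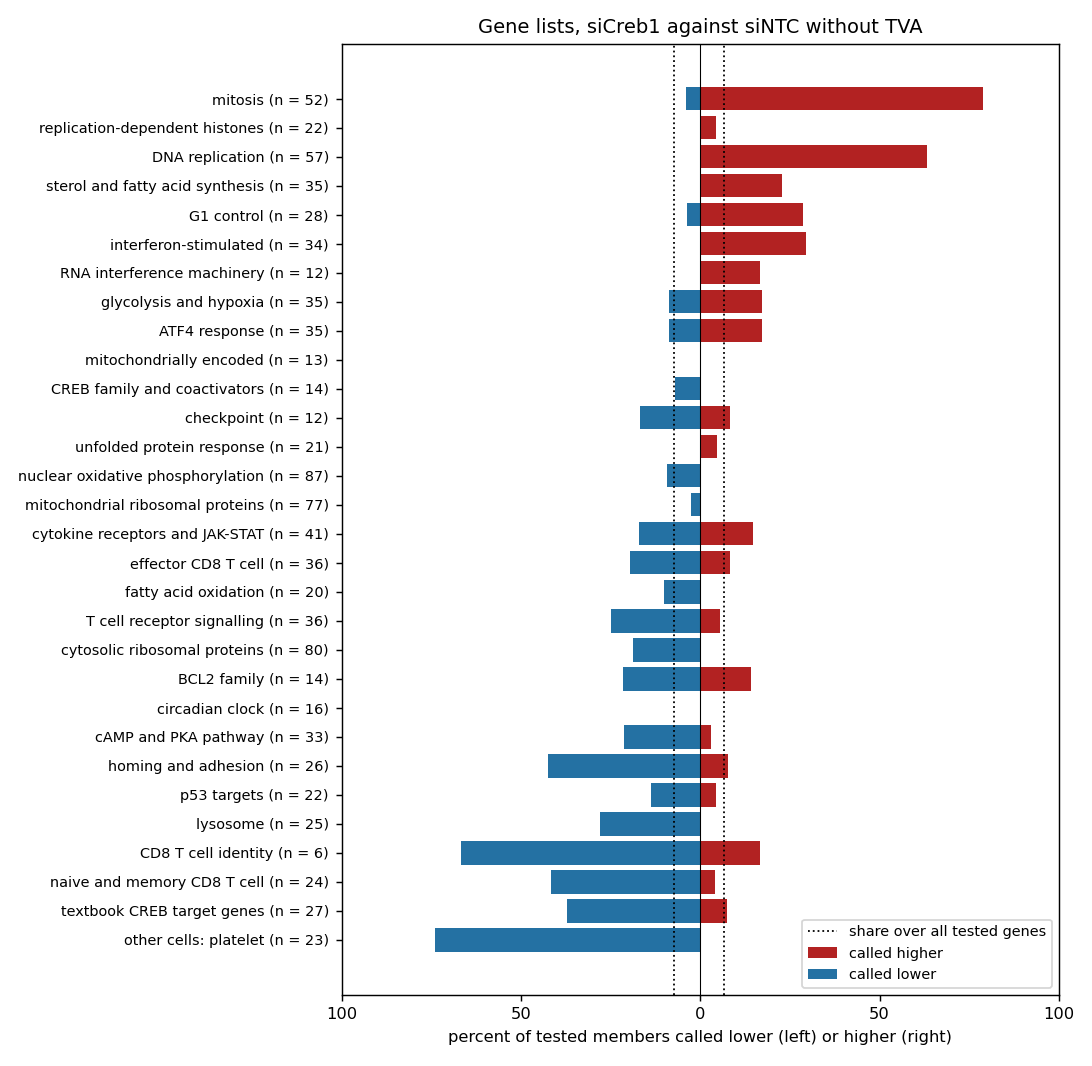
Percent of the tested members of each gene list that fell (bars to the left) or rose (bars to the right) in siCreb1 against siNTC cells without TVA, ordered by the list's median, with dotted lines at the shares over all tested genes. Mitosis (41 of 52 members) and DNA replication (36 of 57) reach farthest to the right, and the platelet list (17 of 23) farthest to the left. The platelet and histone lists were added after the values were seen.

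Of 14 tested CREB family factors and coactivators, 1 fell, Creb1 itself, and none rose. Atf1, the closest relative of Creb1, was 22.0, 23.1 and 21.0 FPKM in siNTC cells and 23.2, 22.6 and 21.8 FPKM in siCreb1 cells, and its values overlapped (log2 fold change 0.03, adjusted p = 0.70). Crem, which encodes activator and repressor forms and is itself a CREB target, was 1.16, 1.26 and 1.74 FPKM against 1.90, 1.84 and 1.85 FPKM, without overlap and short of the threshold (0.27, adjusted p = 0.12). The coactivator genes Crebbp (0.06) and Ep300 (0.02) and the CRTC genes Crtc1 (0.12), Crtc2 (0.05) and Crtc3 (−0.09) also missed it.

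In the cAMP and PKA pathway 7 of 33 tested genes fell and 1 rose, with 25 below 0 and a median of −0.08. On the TPM scale 4 fell and 2 rose. Prkar2b, a regulatory subunit of PKA, was 6.20, 4.66 and 5.04 FPKM in siNTC cells and 3.51, 2.97 and 3.32 FPKM in siCreb1 cells (−0.56, adjusted p = 0.0036). Gnas, which encodes the stimulatory G protein subunit that activates adenylyl cyclase, was 6.68, 8.26 and 6.62 FPKM against 4.56, 4.62 and 4.61 FPKM (−0.54, adjusted p = 0.016). Neither gene's groups overlapped.

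The kinase Sik1, an inhibitor of CRTC coactivators and a CREB target, fell from a range of 4.84 to 5.56 FPKM to one of 3.77 to 4.21 FPKM (−0.31, adjusted p = 0.012). Pde3b, a phosphodiesterase that degrades cAMP, fell by 0.26 (adjusted p = 0.00089). Gnai2 (−0.10), Rap1a (−0.13) and Rap1b (−0.13) were the remaining genes that fell, and the anchoring protein gene Akap8 rose (0.09, adjusted p = 0.027). The receptor gene Adora2a, which couples adenosine to cAMP, lay below 0 without passing the test (−0.21, adjusted p = 0.058). With TVA 3 genes of this pathway fell and 3 rose, against 0 and 4 on the TPM scale and 1 and 4 with quantile normalization. Prkar2b, Gnas and Rap1b are also expressed in platelets, whose transcripts fell as described further on, and the part of the latter in these values was not tested.

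Among 27 tested textbook CREB targets, 10 fell and 2 rose, 18 lay below 0 and the median was −0.12. Dusp2, a phosphatase that inactivates MAP kinases, was 35.7, 38.1 and 34.3 FPKM in siNTC cells and 24.6, 29.2 and 25.1 FPKM in siCreb1 cells (−0.44, adjusted p = 0.0016). The related phosphatase gene Dusp1 was 3.08, 3.33 and 3.18 FPKM against 2.18, 2.16 and 2.62 FPKM (−0.34, adjusted p = 0.020). Btg2, an antiproliferative gene, was 107, 103 and 102 FPKM against 84.6, 83.8 and 84.5 FPKM (−0.30, adjusted p = 0.00015). In none of these did the groups overlap.

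Of the AP-1 subunits, Jund fell from 126, 150 and 137 FPKM to 114, 107 and 113 FPKM (−0.30, adjusted p = 0.0097), and Junb fell by 0.26 (adjusted p = 0.029). Jun (0.07) and Fosl2 (0.03) did not pass the test. Zfp36, which encodes an mRNA-destabilizing protein (−0.30), the immediate early genes Ier2 (−0.22) and Ier5 (−0.25), Sik1 and the survival gene Mcl1 (−0.13) completed the genes that fell. The other antiapoptotic gene of the list, Bcl2, rose from 68.6, 66.8 and 69.7 FPKM to 78.1, 80.1 and 78.4 FPKM (0.20, adjusted p = 0.00043), and so did the cyclin gene Ccna2 (0.26, adjusted p = 0.0043).

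Several of the most cited CREB targets were low and did not pass the test. Nr4a1, an orphan nuclear receptor induced by antigen, was 3.46 to 3.81 FPKM in siNTC cells and 3.09 to 3.64 FPKM in siCreb1 cells (−0.07, adjusted p = 0.72). Egr1 (−0.12, adjusted p = 0.17), a zinc finger factor of the immediate early response, and the clock gene Per1 (−0.09, adjusted p = 0.33) lay just below 0. Of the 6 tested EGR and NR4A genes none was called without TVA, 4 lay above 0 and 2 below, and the median was 0.03. With TVA 2 of the 27 fell (0 on the TPM scale), Btg2 among them (−0.19, adjusted p = 0.0030). Without TVA the median of the list was below 0 under each scaling tried, with 7 to 10 genes that fell.

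Promoter sequences, from 250 bases before to 50 after the RefSeq start of each gene in GRCm38.p6, were at hand for 7978 of the tested genes. The full element TGACGTCA, which reads the same on both strands, was found in 2.03% of 27025 gene promoters, in 3.84% of those of tested genes, in 30 of 637 promoters of genes that fell (4.71%) and in 14 of 558 of genes that rose (2.51%). The core, TGACG or CGTCA, which every full element also contains, was found in 23.0% of all promoters, 37.8% of tested ones, 43.8% of those of genes that fell and 32.1% of those of genes that rose. With 100 bases before the start, the full element was in 3.61% of genes that fell, against 3.17% of tested ones and 2.15% that rose. The core was then in 32.5%, 27.4% and 23.5% in the same order. Among 25 promoters of the CREB target list, 17 held the core and 2 the full element, those of Dusp1 and Btg2. With 100 bases before the start, 9 held the core and 0 the full element. The list was drawn up from known CREB targets, so its shares are no independent observation. Genes with the full element that fell also included Tbcc, a tubulin-folding cofactor (−0.40), the tubulin gene Tubb2a (−0.39), the phosphatase subunit gene Ppp1r15a of the stress response (−0.38) and Pcsk1, a proprotein convertase (−0.33). The bases from 200 to 51 before the start of Dusp1 and Btg2 are shown because these targets fell and hold the element, which is in capitals (Dusp1 chr17:26508523-26508672 and Btg2 chr1:134079206-134079355, both on the minus strand, read 5′ to 3′ along the gene). In Dusp1 the element begins 143 bases and in Btg2 166 bases before the start.
Dusp1: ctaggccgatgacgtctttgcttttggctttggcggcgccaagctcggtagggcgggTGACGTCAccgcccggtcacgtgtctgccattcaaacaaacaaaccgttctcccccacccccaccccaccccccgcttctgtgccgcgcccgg
Btg2: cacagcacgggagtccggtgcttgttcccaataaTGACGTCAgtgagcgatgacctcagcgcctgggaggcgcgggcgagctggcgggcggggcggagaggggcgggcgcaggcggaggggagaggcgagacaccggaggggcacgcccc

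Many of the largest falls were in genes typical of platelets and their precursors, the megakaryocytes. Of the 15 protein-coding genes with the largest falls, 7 belonged to a list of 31 platelet genes that was written after the values were seen, as did 10 of the 33 genes that fell by at least 0.5. Ppbp, a platelet chemokine, was 77.7, 83.9 and 88.6 FPKM in siNTC cells and 46.4, 46.9 and 49.6 FPKM in siCreb1 cells (−0.79, adjusted p = 2.9e-05). Pf4, platelet factor 4, was 72.9, 73.9 and 68.9 FPKM against 45.4, 50.1 and 44.0 FPKM (−0.62, adjusted p = 5.5e-05). The groups were clearly apart for both genes.

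Since the platelet list was written after the values were seen, its counts are a description. Of its 23 tested members 17 fell, none rose, 23 lay below 0 and the median was −0.50. Under other settings 6 to 21 members fell and the median lay between −0.68 and −0.49. With 1 library left out, 14 to 18 fell. The adhesion receptor genes Gp5 (−0.78), Gp9 (−0.66) and Itga2b (−0.59), the serotonin transporter gene Slc6a4 (−0.73), the caveolar protein gene Cavin2 (−0.75), the receptor gene Treml1 (−0.64) and the clotting factor gene Vwf (−0.49) were among those that fell, and Gp1ba (−0.23, adjusted p = 0.069) and Tubb1 (−0.56, adjusted p = 0.057) were not. Tmem40, also known from platelets but not on the list, was 2.48, 2.26 and 1.80 FPKM against 0.872, 0.669 and 1.10 FPKM (−0.76, adjusted p = 0.0037).

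The summed level of the 31 genes was 301 to 303 FPKM in siNTC cells and 199 to 205 FPKM in siCreb1 cells without TVA, and 283 to 290 FPKM and 229 to 233 FPKM with TVA. Gp1bb was at 0 in all 6 libraries without TVA, and 7 further members were below the expression threshold, among them the receptor genes Gp6, Clec1b and P2ry12. With TVA 7 of the 23 genes fell and the median was −0.26. The interaction was above 0 and passed the test for Ppbp (0.47, adjusted p = 0.012) and Vwf (0.33, adjusted p = 0.042). In bulk RNA, fewer cells or fragments of a type and less RNA in each cannot be told apart, and the origin of these transcripts was not tested. Markers of erythroid cells summed to at most 0.316 FPKM without TVA, with 3 of 6 at 0, those of neutrophils summed to 0.5 to 1.3 FPKM, and those of B cells to 28.8 to 30.02 FPKM in siNTC and 24.1 to 25.1 FPKM in siCreb1 cells. The erythroid, neutrophil and dendritic cell markers were all below the threshold for testing. Of the B cell (4), CD4+ T cell (3), NK cell (4), macrophage (2), γδ T cell (3) and stromal (1) markers that were tested, none was called by limma without TVA, 5 of the 17 had an unadjusted p under 0.05, and limma-voom called 1 B cell marker lower.

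**Figure D4:**
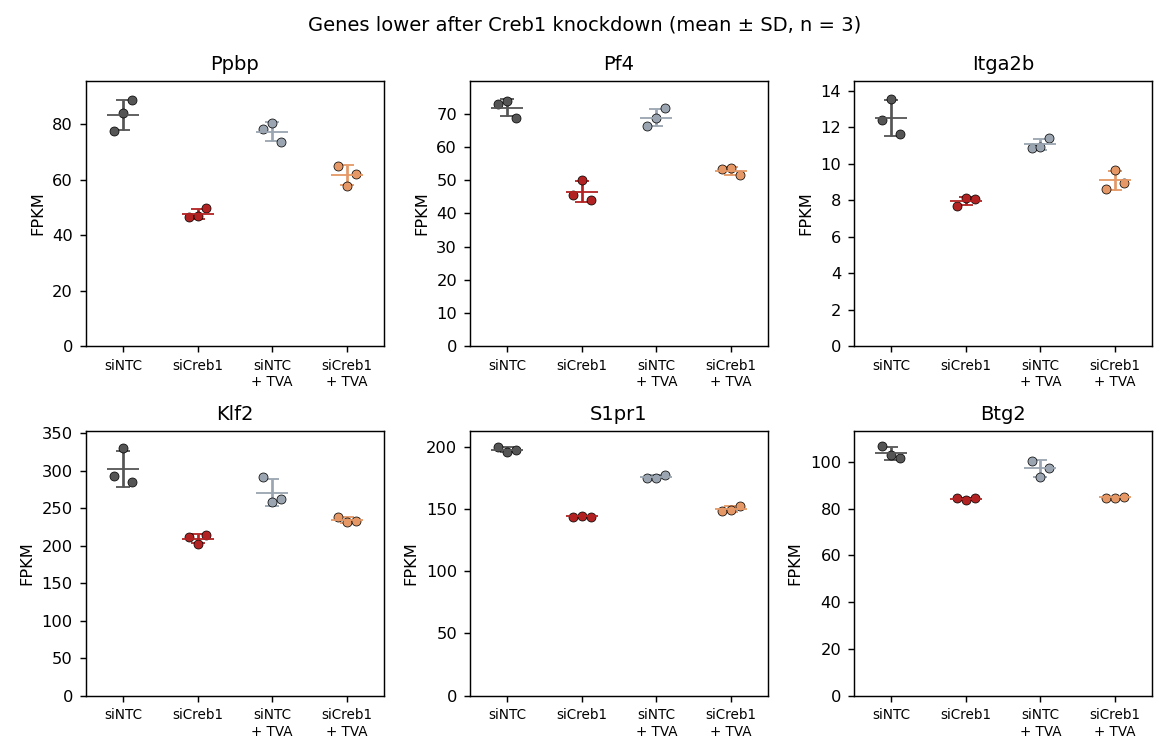
Level in FPKM of Ppbp, Pf4, Itga2b, Klf2, S1pr1 and Btg2 in the 12 libraries by group, with a point per library and the mean ± SD (n = 3). In the siCreb1 libraries Ppbp lies between 46.4 and 49.6 FPKM and Klf2 between 203 and 214 FPKM, below every siNTC library without TVA.

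Of 24 tested genes of naive and memory CD8+ T cells, 10 fell and 1 rose, 21 lay below 0 and the median was −0.12, and on the TPM scale 6 fell and 0 rose. Klf2, a quiescence factor that maintains lymphoid homing, was 293, 330 and 286 FPKM in siNTC cells and 212, 203 and 214 FPKM in siCreb1 cells (−0.53, adjusted p = 0.00035). Its target S1pr1, the receptor for exit from lymph nodes, was 199.9, 196 and 197 FPKM against 144, 145 and 144 FPKM (−0.45, adjusted p = 1.1e-06). Il7r, the receptor of the survival cytokine IL-7, fell from 26.9, 25.1 and 26.8 FPKM to 20.8, 20.3 and 19.8 FPKM (−0.35, adjusted p = 0.00014). The 3 genes had no overlap between groups and low spread within them.

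Smaller falls were found for Klf3 (−0.29), the chemokine receptor gene Ccr7 (−0.25), Satb1 (−0.14), Foxo1 (−0.13), Tcf7 (−0.11) and Lef1 (−0.08), which apart from Ccr7 encode transcription factors of naive and memory cells. Ly6c2, a surface marker of memory and activated cells, rose (0.17, adjusted p = 0.049). With TVA 4 of the 24 genes fell and 2 rose, and the median was −0.01. On the TPM scale 1 fell and 2 rose, and with quantile normalization 1 fell and 3 rose. In the main fit the genes that fell with TVA included S1pr1 (−0.23, adjusted p = 0.00014) and Klf2 (−0.20, adjusted p = 0.046). The interaction of S1pr1 was 0.22 (adjusted p = 0.0017), and its level in siNTC cells with TVA was 175 to 177 FPKM.

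Of 26 tested homing and adhesion genes, some of them on the preceding list, 11 fell and 2 rose, with 7 and 2 on the TPM scale. With TVA 12 fell and 0 rose, against 3 and 1 on the TPM scale and 6 and 2 with quantile normalization. S1pr4, another sphingosine 1-phosphate receptor, was 118, 124 and 112 FPKM in siNTC cells and 82.4, 85.5 and 84.5 FPKM in siCreb1 cells (−0.48, adjusted p = 2.7e-05). The chemokine receptors Cxcr6 (−0.30), Cxcr4 (−0.26) and Cxcr5 (−0.27), the integrin subunits Itga6 (−0.30) and Itgb3 (−0.15, also a platelet gene) and the selectin ligand carriers Spn (−0.13) and Selplg (−0.12) fell as well. Itgal, a subunit of the integrin LFA-1, rose (0.11).

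Effector genes were 7 lower and 3 higher of 36 tested, where 7.21% of all tested genes fell and 6.54% rose. Gzmb, which encodes the cytotoxic protease granzyme B, was 74.1, 71.7 and 71.4 FPKM in siNTC cells and 95.03, 101 and 97.4 FPKM in siCreb1 cells (0.43, adjusted p = 5.1e-05). With TVA its groups nearly coincided (0.05), and the interaction was −0.38 (adjusted p = 0.0025). The pore-forming protein gene Prf1 went the other way, from 10.2, 10.8 and 8.73 FPKM to 7.42, 7.81 and 7.30 FPKM (−0.35, adjusted p = 0.042). Srgn, the granule proteoglycan (−0.17), Lamp1 (−0.22), the chemokine gene Ccl5 (−0.18), Ltb (−0.17), Klrd1 (−0.22) and Id2 (−0.13) also fell, and Nkg7, a granule protein (0.08), and Il2ra, the high-affinity IL-2 receptor chain (0.23), rose. Ifng, at 1.20 to 1.45 FPKM in siNTC and 0.997 to 1.33 FPKM in siCreb1 cells, Tnf (0.12, adjusted p = 0.51), Tbx21 (0.16, adjusted p = 0.27) and Eomes (0.07, adjusted p = 0.19) did not pass the test.

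Among 12 tested checkpoint genes, the inhibitory receptors Ctla4 (from 43.6, 46.8 and 45.6 FPKM to 37.0, 36.3 and 38.9 FPKM, −0.27, adjusted p = 0.0014) and Vsir (−0.24, adjusted p = 0.00058) fell, and Btla rose (0.19, adjusted p = 0.021). Pdcd1, the gene of PD-1, was under the threshold for testing, at 0.856, 1.04 and 1.45 FPKM in siNTC and 0.669, 0.626 and 0.797 FPKM in siCreb1 cells.

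Cytokine receptor and JAK-STAT genes were divided, with 7 lower and 6 higher of 41. Socs1, the feedback inhibitor of cytokine signalling, was 66.2, 72.2 and 64.2 FPKM in siNTC cells and 50.5, 48.4 and 51.8 FPKM in siCreb1 cells (−0.42, adjusted p = 0.00023), and the interferon-γ receptor gene Ifngr1 was 224, 222 and 226 FPKM against 184, 180 and 181 FPKM (−0.30, adjusted p = 8.6e-05). Another feedback inhibitor, Cish, rose (0.28, adjusted p = 0.021), as did Il12rb1, a chain of the IL-12 receptor (0.27, adjusted p = 0.0091), and the signal transducer Stat2 (0.17). Il6ra (−0.25) and Tgfbr2 (−0.18) fell, while Tgfbr1, the partner of the latter, rose (0.11).

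Genes of the T cell receptor and its signalling fell by small amounts, 9 of 36, and 2 rose. Cd8b1, the β chain of the CD8 coreceptor, was 924, 937 and 941 FPKM in siNTC cells and 836, 847 and 822 FPKM in siCreb1 cells (−0.16, adjusted p = 0.00065). Cd8a, the α chain, moved upwards, from 418, 417 and 416 FPKM to 441, 442 and 447 FPKM (0.09, adjusted p = 0.0040). Both differences were of like size with TVA (−0.14 and 0.09). Cd3d (−0.15), Cd3g (−0.13), Cd247 (−0.15) and Lck (−0.10) fell and Ptprc, the CD45 phosphatase, rose (0.09). On the TPM scale none of the 36 fell and 2 rose, and the median turned from −0.04 to 0.00.

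All 57 listed genes of DNA replication were tested, 36 rose, none fell, 53 lay above 0 and the median was 0.22. Clspn, which encodes the replication checkpoint protein claspin, was 6.06, 5.62 and 5.16 FPKM in siNTC cells and 9.23, 8.79 and 8.83 FPKM in siCreb1 cells (0.59, standard error 0.05, adjusted p = 0.00011). The replicative helicase subunits Mcm2 to Mcm7 rose, from 0.16 for Mcm4 and Mcm6 to 0.30 for Mcm5. Cdc6, which loads that helicase, was 3.18, 3.38 and 3.45 FPKM against 4.98, 4.97 and 4.95 FPKM (0.46, adjusted p = 0.0014). Rrm2, the ribonucleotide reductase subunit that limits nucleotide supply, was 38.6, 37.9 and 41.0 FPKM against 51.6, 51.8 and 51.5 FPKM (0.39, adjusted p = 5.1e-05). Uhrf1, which directs maintenance DNA methylation (0.48), Pcna, the sliding clamp (0.18), the DNA ligase gene Lig1 (0.47) and the primase gene Prim1 (0.47) followed, and Orc5 (−0.12), Rpa1 (0.01) and Fen1 (0.03) did not pass the test.

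Mitosis genes behaved alike, with 41 of 52 higher, 2 lower and a median of 0.27. Top2a, the topoisomerase that untangles chromosomes, was 50.6, 47.2 and 49.4 FPKM in siNTC cells and 66.4, 68.6 and 66.1 FPKM in siCreb1 cells (0.44, adjusted p = 2.6e-05). The proliferation marker Mki67 was 30.3, 28.6 and 30.3 FPKM against 41.7, 39.9 and 39.7 FPKM (0.43, adjusted p = 2.4e-05). Bub1, a checkpoint kinase (0.43), the separase gene Espl1 (0.43), the kinesin gene Kif11 (0.40), Aurkb (0.37) and the transcription factor gene Foxm1 (0.37) rose as well. Pttg1, the separase inhibitor securin (−0.21), and the condensin subunit Smc4 (−0.16) fell, and Cdc20 (0.07, adjusted p = 0.45) and Aurka (0.15, adjusted p = 0.20) did not pass the test.

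With TVA no gene of either list rose, while 11 replication and 16 mitosis genes fell, and the medians were −0.10 and −0.16. The genes that fell with TVA were 2 and 4 on the TPM scale and 6 and 13 with quantile normalization, and limma-voom called 1 replication gene higher. The interaction was below 0 and passed the test for 27 of the 57 and 41 of the 52 genes. Summed replication genes were 826 to 830 FPKM in siNTC cells, 959 to 968 FPKM in siCreb1 cells, 1077 to 1093 FPKM in siNTC cells with TVA and 987 to 994 FPKM in siCreb1 cells with TVA. Mitosis genes gave 879 to 903, 1005 to 1021, 1139 to 1148 and 1034 to 1039 FPKM in the same order. The siNTC cells without TVA had the lowest mean of the 4 groups for 52 replication and 47 mitosis genes, and siNTC cells with TVA the highest for 50 and 47. How many cells were dividing, or at which cycle phase, was not measured in these files.

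**Figure D5:**
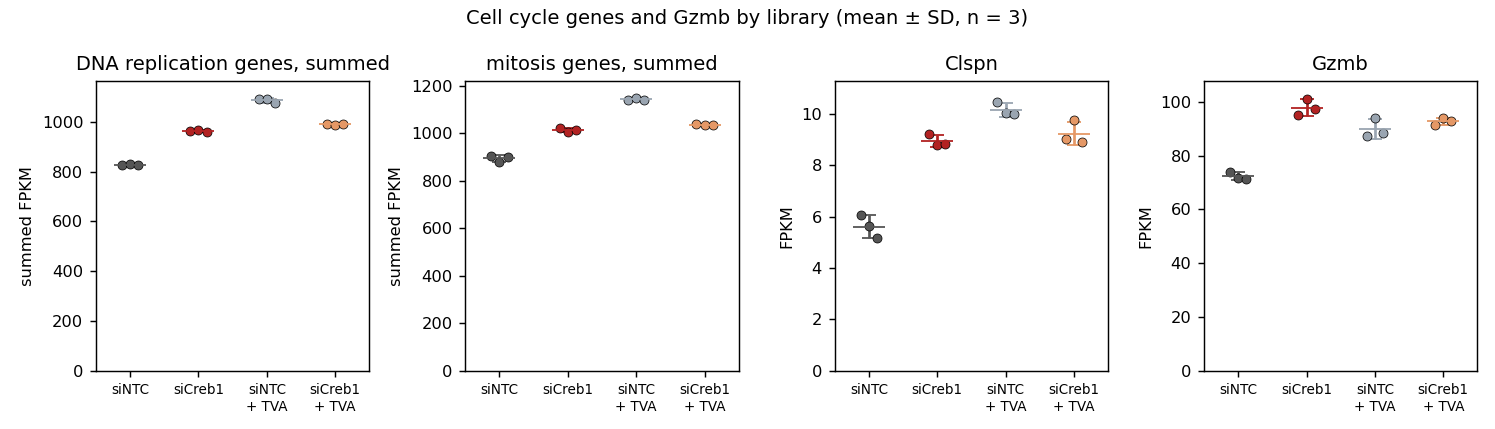
Summed FPKM of the DNA replication and mitosis lists and FPKM of Clspn and Gzmb in each library of the 4 groups, with a point per library and the mean ± SD (n = 3). The siCreb1 libraries without TVA (959 to 968 FPKM for replication) lie above the siNTC libraries without TVA (826 to 830 FPKM) and below the siNTC libraries with TVA (1077 to 1093 FPKM).

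Genes that govern entry into the cycle were 8 higher and 1 lower of 28. Cdk6, a kinase that starts the G1 phase programme, was 8.85, 7.92 and 8.46 FPKM in siNTC cells and 11.9, 12.5 and 12.1 FPKM in siCreb1 cells (0.49, adjusted p = 0.00010), and it also rose with TVA (0.18, adjusted p = 0.024). The E2F genes E2f2 (0.24), E2f7 (0.34) and E2f8 (0.35) and Cdk2 (0.27) rose, and Cdkn1b, the inhibitor p27, fell from 68.3, 67.6 and 69.4 FPKM to 59.9, 61.3 and 61.1 FPKM (−0.17, adjusted p = 0.0038).

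E2F motifs were searched as TTTCCCGC, TTTGGCGC, TTTCGCGC and TTTGCCGC on both strands. They were found in 2.60% of all promoters, 5.20% of tested ones, 10.6% of those of genes that rose (59 of 558) and 2.98% of those of genes that fell. Of genes that rose both without and with TVA, 6 of 169 promoters held a motif (3.55%), and of those that fell in both, 3 of 199 (1.51%). In the DNA replication list 18 of 47 promoters held one, and in the mitosis list 4 of 43. With 100 bases before the start, a motif was in 5.91% of promoters of genes that rose and 0.942% of those that fell. Among tested genes the share was then 2.87%, and among genes that rose both without and with TVA it was 2.37%. Many genes of the replication list are textbook E2F targets, so its share is no independent observation. Mcm5 and Cdc6, chosen after their values were seen, are shown, from 200 to 51 bases before the start on the plus strand, because both rose and carry the motif (Mcm5 chr8:75109309-75109458 and Cdc6 chr11:98907951-98908100). Capitals mark E2F motifs, which overlap on opposite strands in Mcm5, where a second block in capitals is a full cAMP response element 99 bases before the start.
Mcm5: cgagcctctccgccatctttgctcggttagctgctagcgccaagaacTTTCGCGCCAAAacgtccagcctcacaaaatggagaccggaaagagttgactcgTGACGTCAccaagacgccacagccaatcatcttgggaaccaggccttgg
Cdc6: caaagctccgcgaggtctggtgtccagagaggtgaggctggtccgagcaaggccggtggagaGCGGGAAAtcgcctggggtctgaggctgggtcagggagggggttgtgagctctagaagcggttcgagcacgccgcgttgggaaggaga

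Other genes with large rises were of varied function. H60b, a ligand of the activating receptor NKG2D, was 0.124, 0.427 and 0.875 FPKM in siNTC cells and 1.66, 1.81 and 1.60 FPKM in siCreb1 cells (0.90, adjusted p = 0.021), and it rose again with TVA (0.97, adjusted p = 0.019). Without TVA it had 3, 9 and 22 recovered reads in siNTC cells against 42, 49 and 43 in siCreb1 cells. H60b passed the threshold of 1 FPKM only through the siCreb1 libraries, so its p-value without TVA is a description. The cytokine gene Lif was 3.21, 2.58 and 2.66 FPKM against 4.78, 5.29 and 5.84 FPKM (0.72, adjusted p = 0.0014), and with TVA the difference was 0.18 (adjusted p = 0.29). Tgm2, a protein-crosslinking transglutaminase, was 1.26, 1.31 and 1.20 FPKM against 2.74, 2.90 and 2.54 FPKM (0.72, adjusted p = 0.00052). In each the groups stood apart without TVA.

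Flt3l, the growth factor of dendritic cell precursors, rose from 10.7, 11.8 and 10.4 FPKM to 17.1, 16.8 and 15.6 FPKM (0.55, adjusted p = 0.00055) and again with TVA (0.41, adjusted p = 0.0043). Hist1h1b, a linker histone gene (0.76), the DNA glycosylase gene Neil3 (0.58), the kinase gene Cdc7, which fires replication origins (0.57), the endonuclease gene Ankle1 (0.55) and Pclaf, a partner of PCNA (0.53), act in chromosome structure, replication or repair. Gapdhs, the sperm form of a glycolytic enzyme (0.63), the zinc finger gene Zfp970 (0.51), Gm4951 (0.71), Gm614 (0.67) and 4930518I15Rik (0.51) completed the 15 largest rises among protein-coding genes.

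Beyond platelet genes, the largest falls included the transcription factor gene Cebpb, from 6.06, 8.83 and 7.21 FPKM to 3.59, 4.67 and 2.89 FPKM (−0.83, adjusted p = 0.032). With TVA it was −0.29 (adjusted p = 0.45). Mcee, a mitochondrial enzyme of propionate breakdown, fell from 8.28, 9.32 and 9.28 FPKM to 5.05, 7.26 and 4.50 FPKM (−0.61, adjusted p = 0.013). Map1lc3a, of the LC3 family of autophagosome proteins, fell from 8.31, 7.84 and 8.09 FPKM to 5.14, 5.38 and 4.33 FPKM (−0.61, adjusted p = 0.022). Both of the latter, and the chaperone partner gene Bag2 (−0.60), fell by much the same amount with TVA, by 0.50, 0.60 and 0.58. Mdk, a secreted growth factor (−0.65, adjusted p = 0.028), and Rtl8c, of retroviral origin (−0.60, adjusted p = 0.0081), passed the test only in the cells without TVA, and their interactions of 0.90 and 0.44 did not (adjusted p = 0.092 and 0.23).

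Among non-coding and receptor segment genes, Trav9n-3, a variable segment of the T cell receptor α chain, had 87, 55 and 46 recovered reads in siNTC cells and 0, 1 and 3 in siCreb1 cells (−2.56, adjusted p = 0.0086). With TVA it had 68, 32 and 62 reads against 3, 71 and 56, so siCreb1 libraries ranged from few to many. Of all tested genes 7.21% fell and 6.54% rose, and over the 175 tested receptor segments 10 fell and 3 rose. They included Trav17 (−0.88) and Traj23, a joining segment (1.83), each at low levels, and the abundant Trbv13-2, chosen after its values were seen, at 177, 168 and 176 FPKM against 123, 128 and 122 FPKM (−0.48, adjusted p = 0.00019). Segments of this kind resemble each other, so reads may be divided unevenly among them, and they differ between T cell clones. The short RNA genes Mir3060 (−0.95), Gm23493 and Gm24339 rest on few reads, with 0 reads in each siNTC library against 6, 2 and 10 for Gm23493 and 4, 5 and 2 for Gm24339. Gm23493 and Gm24339 therefore passed the threshold for testing only through the siCreb1 libraries.

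Sterol and fatty acid synthesis genes were 8 higher and 0 lower of 35, with 13 higher on the TPM scale, 14 with limma-voom and 5 without siCreb1 2. Scd2, a desaturase that makes monounsaturated fatty acids, was 127, 119.5 and 120.4 FPKM in siNTC cells and 156, 151 and 155 FPKM in siCreb1 cells (0.33, adjusted p = 9.9e-05). The desaturase gene Fads2 (0.40), the cholesterol synthesis genes Dhcr7 (0.28), Hmgcs1 (0.21) and Lss (0.18) and the fatty acid synthesis genes Acaca (0.23) and Fasn (0.11) also rose. With TVA 1 of these genes rose and 4 of the list fell, and on the TPM scale none fell. The interaction of Scd2 was −0.26 (adjusted p = 0.0079).

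Interferon-stimulated genes were 10 higher and 0 lower of 34 (5 higher with only the 6 libraries compared), and with TVA 7 higher and 1 lower. Gbp2, an interferon-inducible GTPase, was 125, 116 and 120.4 FPKM in siNTC cells and 143, 141 and 138 FPKM in siCreb1 cells (0.22, adjusted p = 0.00068). Ifi27 (0.24), Oas3, a sensor of double-stranded RNA (0.22), Rtp4 (0.22), Xaf1 (0.25), Gbp5 (0.21), Igtp (0.10) and Irf1 (0.11) rose beside Stat2. Of 12 tested genes of RNA interference, the Argonaute partners Tnrc6a (0.11) and Tnrc6b (0.14) rose and none fell.

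Atf4, the transcription factor of the amino acid response, fell from 47.3, 49.8 and 51.7 FPKM to 41.7, 43.1 and 42.8 FPKM (−0.22, adjusted p = 0.0044), and so did its target Trib3 (−0.35, adjusted p = 0.022). Other members of its response rose, among them the serine synthesis gene Psat1, from 12.5, 12.5 and 12.4 FPKM to 15.8, 16.1 and 15.8 FPKM (0.33, adjusted p = 8.6e-05), and the folate enzyme gene Mthfd2 (0.19, adjusted p = 0.034), so that 6 of 35 rose and 3 fell. The 6 became 2, 1, 1, 3, 2 and 3 without siNTC 2, siNTC 3, siCreb1 1, siCreb1 2, siCreb1 3 and siCreb1 plus TVA 3 in turn. Of 35 tested glycolysis and hypoxia genes 6 rose, including the glucose transporter gene Slc2a3 (0.18) and Pfkp (0.22), and 3 fell, including the mitophagy receptor gene Bnip3l (−0.26) and Pdk1 (−0.12). The 6 became 3, 2, 2 and 3 without siNTC 2, siNTC 3, siCreb1 2 and siCreb1 3 in turn, and the 3 became 1 without siNTC 3 or siCreb1 1 and on the TPM scale. In 25 lysosome genes 7 fell, none rose and the median was −0.10, with the protease gene Ctsl at 4.20, 4.14 and 4.18 FPKM against 2.98, 2.37 and 2.55 FPKM (−0.51, adjusted p = 0.0031), and with 2 lower on the TPM scale. Without siNTC 1, siNTC 3, siCreb1 1 or siCreb1 3 in turn, 3, 4, 3 and 3 lysosome genes fell.

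Cytosolic ribosomal protein genes were 15 lower and 0 higher of 80 with a median of −0.05, but quantile normalization turned the median to 0.02, with 3 lower and 2 higher, and on the TPM scale 3 fell. Without siCreb1 1, 9 fell. Nuclear oxidative phosphorylation genes were 8 lower of 87 (9.20%, against 7.21% of all tested genes). Their median of −0.02 turned to 0.03 on the TPM scale with 1 lower. Without siNTC 1, siNTC 2, siCreb1 1, siCreb1 2 and siCreb1 3 in turn, 5, 5, 3, 4 and 5 of them fell. Of 77 mitochondrial ribosomal genes 2 fell, none of the 13 mitochondrially encoded genes was called by limma or limma-voom or had an unadjusted limma p under 0.05, and 2 of 20 fatty acid oxidation genes fell, among them Hadhb (−0.23), while Cpt1a, which admits fatty acids to mitochondria, did not pass the test (0.05, adjusted p = 0.51).

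In the BCL2 family the proapoptotic genes Bbc3 (from 27.7, 32.6 and 28.8 FPKM to 24.9, 23.9 and 24.1 FPKM, −0.27, adjusted p = 0.013) and Bmf (−0.32, adjusted p = 0.018) fell along with the antiapoptotic Mcl1, and the antiapoptotic Bcl2 and Bcl2l1 (0.19) rose, among 14 tested. Of 22 p53 targets 3 fell, Btg2, Bbc3 and Sesn1 (−0.14), and Mdm4 rose (0.24, adjusted p = 0.00077). In the unfolded protein response 1 of 21 genes rose, Edem1 (0.10), and none of 16 clock genes was called by limma, with 5 at an unadjusted p under 0.05 and 1 called higher by limma-voom.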

How the data were processed

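RNA-seq libraries of mouse CD8+ T cells (4 groups of 3) were used as the authors deposited them, as FPKM per gene, one file per library, normalized by the authors to listed gene length and library size. The submitters' processing notes name GRCm38 (mm10); the aligner and counter are not given in the sources used here. Multiplied by gene length, 100% of values above 0 came out as whole reads, giving 16660234 to 24602484 reads per library. The tolerance was 0.05 reads at low values and widened in proportion to the reads at high ones. The highest values could therefore not fail. Genes with a mean of at least 1 FPKM over the 6 libraries without TVA were tested on log2(FPKM + 1), with a pseudocount of 1 that understates the change of low genes, by limma 3.58.1 (R 4.3.3, data.table, 1.17.8; lmFit, contrasts.fit, eBayes with trend), with 1 coefficient per group over all 12 libraries and Benjamini-Hochberg adjustment over 11521 genes at 0.05. The fit was tested on simulated data. Tables and plots were made with Python 3.11.15, pandas 2.3.3, numpy 2.4.6 and matplotlib 3.10.9.

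The members and gene lists were chosen with earlier results of these data known, and the platelet and histone lists after their values were seen. Of 22 tested replication-dependent histones, 1 rose and none fell (median 0.26). Text names Creb1, list members, the 15 protein-coding and 3 non-coding genes per direction with the largest change among called genes without overlap between groups, the 5 largest interactions per direction among genes also called without TVA, genes that fell with TGACGTCA in the promoter, and genes stated as chosen later. Other settings tried were all genes above 0, a pseudocount of 0.1, a mean of at least 5 FPKM, quantile normalization, TPM, equal medians, a replicate block, no trend, only the libraries compared, limma-voom on recovered reads and leaving out each library. Promoters are from RefSeq (GRCm38.p6), and a window from 100 bases before to 50 after the start was also searched. Some list members are not reported here.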

Additional observations from a re-analysis of the deposited data

Results flagged for a closer look

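Of the 261 genes in which the effect of Creb1 knockdown differed between cells with and without TVA by the interaction term of the limma fit (adjusted p under 0.05), 12 are given here, those among the genes named by the rule on largest changes or interactions. The value is the log2 fold change with TVA minus that without. It was below 0 for 7 genes of replication, repair and chromosome segregation: Hist1h1b (−1.05, a linker histone), Rad51ap1 (−0.73, a recombination factor), Clspn (−0.72), Pclaf (−0.71), Cenpi (−0.68, a centromere protein), Cdc7 (−0.58) and Neil3 (−0.51). Each of these rose in siCreb1 cells without TVA and had a difference between −0.29 and 0.07 with TVA. The level of Cenpi was 2.26, 2.25 and 2.15 FPKM in siNTC and 3.78, 3.11 and 2.99 FPKM in siCreb1 cells without TVA, and 3.75, 4.09 and 4.28 FPKM against 3.26, 3.08 and 3.25 FPKM with TVA. Hist1h1b rests on low levels, at most 4.08 FPKM in any library.

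The interaction was above 0 for Ppbp (0.47), Osbpl5 (0.44, a lipid transfer protein), Zfp36 (0.36), Zfp36l2 (0.36, an mRNA decay factor related to Zfp36) and Sgk1 (0.35, a kinase). Each of these fell without TVA. The level of Zfp36l2 was 197, 210.1 and 189 FPKM in siNTC cells, 151, 139.7 and 151 FPKM in siCreb1 cells, and between 155 and 165 FPKM in the libraries with TVA. Sgk1 fell by 0.49 without TVA and its difference with TVA was −0.14 (adjusted p = 0.062). These genes were picked for the size of the interaction in the same libraries, so their values are a description.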

How the results depend on the processing

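No fold change or interaction of the genes named for the largest changes changed sign. List medians without TVA that changed sign under another setting included those of effector (up to 0.01), checkpoint (down to −0.03), cytokine receptor (up to 0.02), T cell receptor (up to 0.00), cytosolic ribosomal (up to 0.02), mitochondrial ribosomal (up to 0.02), oxidative phosphorylation (up to 0.03), fatty acid oxidation (up to 0.01) and unfolded protein response genes (up to 0.04), and of histones (down to −0.11). The medians of NK cell markers (up to 0.03) and macrophage markers (down to −0.11) did so too. With 1 library left out, those of mitochondrially encoded genes (down to −0.02) and CD4+ T cell markers (up to 0.01) also changed sign. Without TVA, the 753 genes that rose became 406 with only the 6 libraries compared and 1177 with limma-voom, and the 831 that fell became 520 with all genes above 0, 297 on the TPM scale and 418 with only the 6 libraries. With TVA, the 533 that rose became 906 with limma-voom, and the 637 that fell became 351 with all genes above 0, 333 with quantile normalization and 121 on the TPM scale. Interactions above 0 (53) became 30 with all genes above 0, 19 on the TPM scale, 28 without a mean-variance trend and 125 with limma-voom, and those below 0 (208) became 133 on the TPM scale and 318 with limma-voom. The cause of these changes was not tested. Leaving out each library in turn gave 499 to 728 genes that rose and 523 to 799 that fell without TVA, 291 to 554 and 291 to 689 with TVA, and 22 to 49 interactions above 0 and 146 to 188 below 0. With TVA, omission of siNTC plus TVA 2 or of any siCreb1 plus TVA library left 291 to 329 genes that rose, and omission of any library with TVA left 291 to 392 that fell. Of calls without TVA, 31.8% were repeated with TVA, and 20.1% to 36.6% with 1 library left out. Fold changes of the genes named for the largest changes without TVA kept their direction and call in 376 refits with other settings and kept the direction but lost the call in 22. With 1 library left out, 454 refits kept both and 50 lost the call. Interactions of these genes lost the call in 6 refits with other settings and in 11 with 1 library left out.

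The replicate numbers did not pair the libraries (correlations of same-numbered deviations from −0.0764 to 0.0583, with 4 of 6 libraries without TVA closest to their own number). With the number as a replicate block, 664 genes rose and 719 fell without TVA, and 26 interactions were above 0. With 3 libraries a group and 17523623 to 22192484 reads, genes of few reads, such as receptor segments, short RNAs and H60b, are the least certain.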

Other observations

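A few genes that rose both without and with TVA are given here, chosen after their values were seen. Luc7l2, a partner of the U1 snRNP, was 22.4, 21.6 and 22.9 FPKM in siNTC cells and 29.4, 27.4 and 28.4 FPKM in siCreb1 cells without TVA (0.34, adjusted p = 0.00020), and the difference with TVA was 0.33 (adjusted p = 0.00059). Pnisr was 0.32 in each comparison, and Arglu1 was 0.32 and 0.36. Ogt, the O-GlcNAc transferase, was 68.5, 70.7 and 72.5 FPKM against 88.1, 85.9 and 87.2 FPKM without TVA (0.30, adjusted p = 5.7e-05) and 0.41 with TVA (adjusted p = 1.6e-05).

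Genes that fell in both, chosen in the same way, included Tbrg1, a growth regulator, at 21.9, 22.2 and 21.8 FPKM in siNTC and 16.3, 16.3 and 17.1 FPKM in siCreb1 cells (−0.39, adjusted p = 0.00016, and −0.38 with TVA), and Akirin2, a nuclear factor needed for proteasome import, at 27.3, 27.8 and 25.8 FPKM against 20.9, 19.6 and 20.1 FPKM (−0.40, adjusted p = 0.00030, and −0.36 with TVA). Evi2a (−0.43 and −0.44) and Chrnb1 (−0.43 and −0.45) had similar differences in both comparisons.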
